A study of Homo sapiens with 8 samples.

Results

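The comparison described here asked what p53 siRNA changed in MCF10A cells that also received LATS1/2 siRNA. MCF10A is an immortalised, non-tumorigenic line of human breast epithelium, so all libraries come from a single cell line. The 2 libraries labelled siLATS1/2/p53 (siRNA against LATS1, LATS2 and p53) were set against the 2 labelled siLATS1/2 (siRNA against LATS1 and LATS2), 4 of the 8 libraries of the series. The members were chosen by these labels alone and not by a measured value. Both groups carry LATS1/2 siRNA and differ in the p53 siRNA. The other 4 libraries, labelled siControl (control siRNA) and sip53 (p53 siRNA alone), entered the same fit and gave the p53 siRNA effect in cells without LATS1/2 siRNA. Each of the 4 groups had 1 library from each of 2 independent batches of cells, numbered 1 and 2, and values are given in that order. The siRNA sequences, doses and durations were not given in the sources used here.

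LATS1 and LATS2 are the kinases at the end of the Hippo pathway. They phosphorylate the transcriptional coactivators YAP and TAZ and keep them out of the nucleus. p53 is a transcription factor that activates genes for cell cycle arrest, apoptosis, DNA repair and metabolism. Among these, CDKN1A encodes p21, an inhibitor of cyclin-dependent kinases. When these kinases are inhibited, RB family proteins and the DREAM complex repress genes of DNA replication and mitosis through E2F sites and CHR elements in their promoters. Loss of p53 function is therefore known for lower arrest genes and higher cell division genes.

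Polyadenylated RNA was sequenced, and the deposited values are log2 levels with a floor of 5, below which all values had been set to 5. Of 29991 entries, 12315 lay above the floor in at least 2 of the 8 libraries and were tested, and 17422 lay at the floor in all 8. No depth is stated, and estimates from the steps between low values were 37.1 and 22.4 M reads for siLATS1/2 and at 11.3 and 30.8 M for siLATS1/2/p53. The first siLATS1/2/p53 library was thus the shallowest of the 8. The number of entries above the floor was 11756 to 12064 per library. LATS1 read 7.93 and 8.10 in siLATS1/2 and 7.97 and 7.90 in siLATS1/2/p53, and LATS2 read 8.72 and 8.63 in siLATS1/2 and 8.75 and 8.81 in siLATS1/2/p53. Neither kinase gene differed past the threshold between the groups compared (LATS1 -0.08 ± 0.11, adjusted p = 0.55, LATS2 0.11 ± 0.11, adjusted p = 0.45, limma with Benjamini-Hochberg adjustment). Differences are siLATS1/2/p53 minus siLATS1/2 on the log2 scale with their standard error (SE) unless named otherwise, and a gene rose or fell where the adjusted p was under 0.05.

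In all, 5361 of 12315 entries passed (43.5% of those tested), 4164 higher (33.8%) and 1197 lower (9.72%) in siLATS1/2/p53. At least 2-fold differences were fewer, with 168 higher and 105 lower. The balance rested on the scaling of the libraries. The median difference over all entries was 0.15. Rescaling by medians of ratios lowered differences by 0.156, or by less where a library lay at the floor. After rescaling 2004 entries were higher (16.3%) and 2190 lower (17.8%), so that the share of calls that were higher went from 77.7% to 47.8%. A difference is therefore best read against the median of 0.15. Without the batch as a block 1791 entries passed, 1395 higher (11.3%) and 396 lower (3.22%). The count was 3256 without siLATS1/2 replicate 1 and 3280 without siLATS1/2/p53 replicate 1. Both siLATS1/2/p53 libraries lay above both siLATS1/2 libraries for 46.1% of entries and below both for 15.2%. Across genes, which are not independent replicates, the difference in batch 1 and that in batch 2 correlated with r = 0.72, and 5356 of the 5361 entries called had the same sign in both batches.

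**Figure D1:**
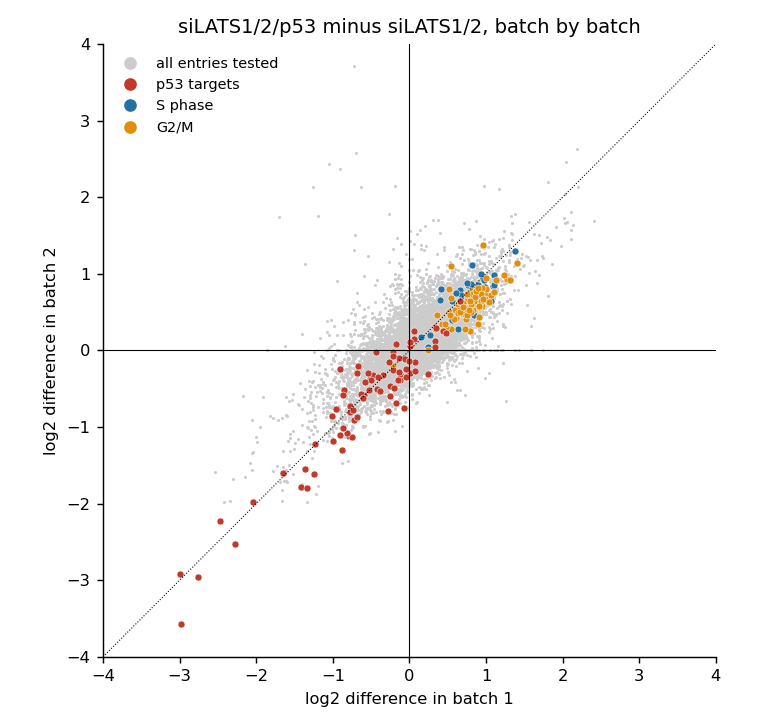
Each point is 1 entry, with the log2 difference of siLATS1/2/p53 minus siLATS1/2 within batch 1 on the horizontal axis and within batch 2 on the vertical axis. Grey points are all 12315 entries tested, red points p53 targets, blue points S phase genes and orange points G2/M genes, and the dotted line marks equal differences. The p53 targets reach down to the lower left, while nearly all S phase and G2/M genes sit to the upper right of zero in both batches.

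Most known targets of p53 fell. Of 83 targets listed 82 had an entry and were tested, and of these 53 fell, 6 rose and 23 did not pass, where 9.72% of all entries fell, with a median difference of -0.44 against 0.15 over all entries. Without the block 34 fell and 1 rose, and after rescaling 60 fell and 1 rose. CDKN1A, the p21 gene, read 12.88 and 13.07 in siLATS1/2 and 9.89 and 10.16 in siLATS1/2/p53. It thus lay lower in both batches (-2.95 ± 0.09, adjusted p = 8.8e-11, limma), by 7.75-fold. MDM2, the ubiquitin ligase that restrains p53 and is itself a p53 target, read 12.40 and 12.36 in siLATS1/2 and 10.98 and 10.57 in siLATS1/2/p53. The groups were apart, and MDM2 fell by 1.60 ± 0.08 (adjusted p = 5.1e-08).

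Among the targets for cell cycle arrest and feedback, 14 of 17 fell and 1 rose. TP53INP1, a stress-induced p53 cofactor, fell by 2.40 ± 0.13 (9.73 and 9.87 in siLATS1/2 and 7.46 and 7.35 in siLATS1/2/p53). It was singled out after its value was seen. The RNA-binding gene ZMAT3 fell by 1.43, SESN1 of the sestrins by 0.95, BTG2 by 0.93, GADD45A by 0.69 and the polo-like kinase gene PLK2 by 0.75. The ring finger gene TRIM22 fell by 1.63 ± 0.18, but its batches lay far apart (11.19 and 10.21 in siLATS1/2 and 9.55 and 8.60 in siLATS1/2/p53), and it did not pass without the block (adjusted p = 0.075). E2F7, which encodes an atypical E2F repressor of the cell cycle, was the member that rose (0.31 ± 0.09), a call lost after rescaling (adjusted p = 0.18) and without the block (adjusted p = 0.085). PPM1D and BTG1 did not pass (-0.14 and -0.04).

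Of the targets for apoptosis, 10 of 15 fell and 1 rose (13 and 0 after rescaling, 3 and 0 without the block). The decoy receptor gene TNFRSF10C read 7.47 and 7.22 in siLATS1/2 and lay at the floor in both siLATS1/2/p53 libraries, so no fold is given. Another decoy receptor gene, TNFRSF10D, fell by 0.94 ± 0.09 (11.87 and 12.19 in siLATS1/2 and 11.12 and 11.06 in siLATS1/2/p53). The death receptor genes TNFRSF10A, FAS and TNFRSF10B fell by 0.47, 0.36 and 0.34, and the pore-forming gene BAX by 0.24. Without the block TNFRSF10A, FAS and BAX did not pass (adjusted p = 0.1, 0.13 and 0.35). The BH3-only genes BBC3 and PMAIP1, which encode PUMA and NOXA, did not pass (-0.58 ± 0.24, adjusted p = 0.068, and -0.11 ± 0.12, adjusted p = 0.45). After rescaling BBC3 passed as lower and PMAIP1 did not pass. Arrest targets had a median difference of -0.75 and apoptosis targets of -0.42, and these medians were not tested against each other. Where a gene is low, the floor understates its change.

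In repair and metabolism, 12 of 18 targets fell and 1 rose. RRM2B, the p53-inducible subunit of ribonucleotide reductase, read 11.32 and 11.27 in siLATS1/2 and 9.99 and 9.47 in siLATS1/2/p53 and fell by 1.57 ± 0.10 (adjusted p = 2.7e-07). The lysosomal cofactor gene GM2A read 12.30 and 12.11 in siLATS1/2 and 11.43 and 11.10 in siLATS1/2/p53 and fell by 0.94 ± 0.08. The ceramidase gene ACER2 fell by 1.23, DDB2 of DNA damage recognition by 0.86, the ribosomal protein paralogue RPS27L by 0.95 and the autophagy gene DRAM1 by 0.61. SCO2, a copper chaperone of cytochrome c oxidase, rose by 0.66 ± 0.19, a call lost after rescaling (adjusted p = 0.057).

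Targets in signalling, membrane and other functions included 17 of 32 that fell and 3 that rose. GDF15, which encodes a secreted stress cytokine, had the most negative difference of all entries tested. It read 9.85 and 9.34 in siLATS1/2 and 6.86 and 5.78 in siLATS1/2/p53, and fell by 3.28 ± 0.18. It was singled out after its value was seen. INPP5D, an inositol phosphatase gene, read 10.94 and 11.31 in siLATS1/2 and 8.18 and 8.35 in siLATS1/2/p53 and fell by 2.86 ± 0.09 (adjusted p = 1.8e-10). The lipid transporter gene ABCA12 read 12.49 and 12.66 in siLATS1/2 and 11.12 and 11.12 in siLATS1/2/p53 and fell by 1.46 ± 0.07. EDA2R, a receptor of the TNF receptor family, fell by 2.01, CYFIP2 by 1.09 and PSTPIP2 by 1.09. SERPINB5, the serpin gene of maspin, rose by 0.35 ± 0.07. After rescaling its rise was 0.19 (adjusted p = 0.041, limma), and without the block it did not pass (adjusted p = 0.22).

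**Figure D2:**
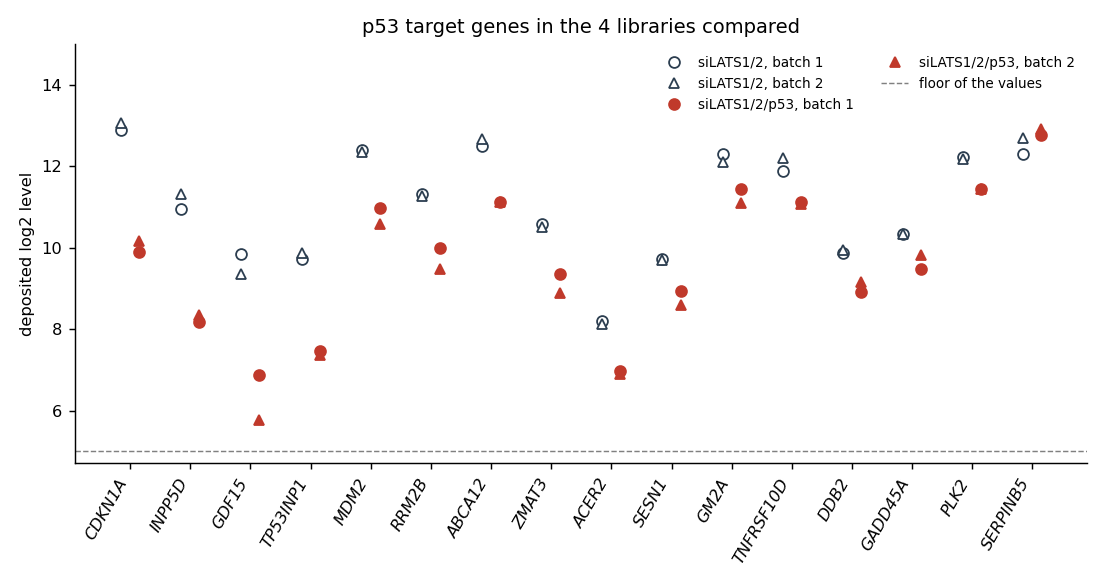
Deposited log2 levels of 16 p53 targets on the vertical axis in the 4 libraries compared. Open dark symbols are siLATS1/2, filled red symbols siLATS1/2/p53, circles batch 1, triangles batch 2, and the dashed line is the floor. For 15 of the genes both red symbols lie below both open ones, and for SERPINB5 both lie above. Over all entries 15.2% lay below both and 46.1% above both. The genes shown are a chosen part of the 82 targets tested, of which 53 fell, 6 rose and 23 did not pass.

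Genes of DNA replication rose nearly throughout. Of 52 S phase genes, 48 rose, 0 fell and 4 did not pass, with a median difference of 0.69. Over all entries 33.8% rose and the median was 0.15. The lowest difference was that of RRM1, at 0.13. After rescaling 46 rose, and without the block 43. All 12 genes of the MCM helicase and its loading rose, between 0.65 and 0.96. MCM2, a helicase subunit, read 10.84 and 10.83 in siLATS1/2 and 11.60 and 11.68 in siLATS1/2/p53 and rose by 0.81 ± 0.07 (adjusted p = 2.1e-06). Its partner MCM7 rose by 0.70 ± 0.06. In a group of 9 that held CDC45 and the GINS genes with DTL, TIPIN, TIMELESS and CLSPN, 8 rose, and GINS3 did not pass (0.24). GINS1 read 9.38 and 9.62 in siLATS1/2 and 10.48 and 10.46 in siLATS1/2/p53. Of the polymerase, clamp and clamp loader genes, 16 of 17 rose, with POLA2 up by 0.87 ± 0.09 and RFC3 by 0.79 ± 0.09. In nucleotide supply 5 of 7 rose, with the reductase gene RRM2 up by 1.05 ± 0.08 and the thymidine kinase gene TK1 by 0.96 ± 0.10. TYMS, the thymidylate synthase gene, did not pass (0.15). All 7 genes of chromatin assembly and DNA methylation rose. Among them ASF1B, a histone chaperone gene, read 8.75 and 8.91 in siLATS1/2 and 10.13 and 10.21 in siLATS1/2/p53, with the siLATS1/2/p53 libraries more than 1 log2 unit above the others, and rose by 1.34 ± 0.10 (adjusted p = 6.4e-07).

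Mitotic genes rose to a like extent. Of 76 G2/M genes, 74 rose, 0 fell and 2 did not pass, against 33.8% and 9.72% of all entries, with a median of 0.68. After rescaling 72 rose and 1 fell, CDC25A (-0.21 before it), and without the block 64 rose. MYBL2, a transcription factor that binds the MuvB core to activate mitotic genes, read 10.93 and 11.11 in siLATS1/2 and 12.33 and 12.25 in siLATS1/2/p53 and rose by 1.27 ± 0.09 (adjusted p = 2.8e-07). FOXM1, which acts with it, rose by 0.90 ± 0.07. All 22 kinesin and cytokinesis genes rose, with HMMR, a spindle and hyaluronan-binding protein gene, at 10.98 and 10.90 in siLATS1/2 and 12.21 and 11.88 in siLATS1/2/p53 and the kinesin gene KIF20A up by 0.93 ± 0.08. All 6 genes of the Aurora kinases and the passenger complex rose, with AURKB up by 0.77 ± 0.08 and TPX2 by 0.74 ± 0.08. All 9 genes of condensin and chromosome compaction rose, TOP2A and MKI67 among them, with NCAPG up by 0.97 ± 0.07. So did all 9 genes of the spindle checkpoint and anaphase control, with the separase gene ESPL1 up by 0.79 ± 0.07. Of the kinetochore genes 16 of 17 rose, with CENPH at 7.83 and 7.83 in siLATS1/2 and 9.10 and 8.77 in siLATS1/2/p53 and NDC80 up by 0.70 ± 0.09.

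DNA repair genes followed, with 22 of 23 up, 0 down and a median of 0.67, against 33.8% and 9.72% of all entries. All 18 genes of homologous recombination and the Fanconi pathway rose. The Fanconi ubiquitin conjugase gene UBE2T read 9.77 and 9.77 in siLATS1/2 and 10.69 and 10.48 in siLATS1/2/p53 and rose by 0.81 ± 0.09 (adjusted p = 1.1e-05). Of 5 checkpoint genes 4 rose, with WEE1 up by 0.87 ± 0.09 and CHEK1 by 0.66 ± 0.08, and ATR did not pass (0.15). In bulk RNA, more cells in a phase and more RNA per cell cannot be told apart.

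Promoters of cell division genes are printed here because members of these lists moved together, and the letters searched are those of the elements through which RB family and DREAM complexes act. RefSeq windows of 300 bases, from 250 before to 50 after the start (build GRCh38.p14), were found for 9601 of 12168 entries with a unique symbol. The motifs were the CHR element TTTGAA, the CCAAT box and 2 E2F forms, TTTGGCGC and TTTCCCGC, on both strands, and none of these holds another, although neighbouring matches can share letters, as a CCAAT box and its reverse do in HMMR. CHR letters were in 46 of 66 G2/M windows (69.7%), against 9.51% of all windows and 4.26% of 47 S phase windows. An E2F form was in 42.6% of S phase windows, against 3.82% of all and 7.58% of G2/M windows. CCAAT was in 71.2% of G2/M, 55.3% of S phase and 36.9% of all windows. Of 68 p53 target windows, 4.41% held CHR letters, 33.8% CCAAT and 8.82% an E2F form. Windows of all entries called higher held CHR letters in 11.4% and an E2F form in 5.03%. For entries at least 2-fold higher the shares were 13.8% and 4.07%. The high shares are thus those of the chosen lists and not of the rises at large. ASF1B was the S phase gene with the smallest p. HMMR was taken as the mitotic gene with the smallest p that held both CHR and CCAAT, and GINS1 as the S phase gene with the smallest p that held an E2F form and had a single window, both choices made after the matches were seen. The windows of MYBL2 and CDKN1A held no match. In the gene's direction, 5′ to 3′, with matches in capitals, they read as follows.
ASF1B (chr19:14136540-14136839, minus strand): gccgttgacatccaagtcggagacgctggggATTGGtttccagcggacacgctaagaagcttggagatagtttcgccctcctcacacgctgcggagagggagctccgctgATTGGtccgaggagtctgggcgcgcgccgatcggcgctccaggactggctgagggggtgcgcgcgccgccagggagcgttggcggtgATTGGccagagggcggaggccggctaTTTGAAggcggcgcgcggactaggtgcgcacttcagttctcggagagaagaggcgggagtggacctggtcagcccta
HMMR (chr5:163460382-163460681, plus strand): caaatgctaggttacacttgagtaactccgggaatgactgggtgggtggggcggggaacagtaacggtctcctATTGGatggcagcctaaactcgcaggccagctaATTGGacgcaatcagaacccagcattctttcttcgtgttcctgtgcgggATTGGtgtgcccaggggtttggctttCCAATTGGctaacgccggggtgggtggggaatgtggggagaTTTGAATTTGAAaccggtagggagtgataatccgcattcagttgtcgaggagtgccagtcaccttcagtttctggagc
GINS1 (chr20:25407423-25407722, plus strand): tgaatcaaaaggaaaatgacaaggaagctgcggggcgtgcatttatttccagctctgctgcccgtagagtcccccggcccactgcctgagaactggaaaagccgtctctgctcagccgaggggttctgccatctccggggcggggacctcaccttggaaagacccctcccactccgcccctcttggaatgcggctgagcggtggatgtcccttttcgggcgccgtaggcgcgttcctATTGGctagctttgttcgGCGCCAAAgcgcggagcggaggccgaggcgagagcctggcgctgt
ASF1B has CHR letters beginning 27 bases before the start and 3 reversed CCAAT boxes further upstream. HMMR has a pair of adjoining CHR matches, at 28 and 22 bases before the start, and 5 CCAAT boxes in either direction. GINS1 has a reversed E2F form 5 bases after the start and a reversed CCAAT box 13 bases before it. A match is a description of letters and not a measured site.

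Regulators of the G1/S transition split. Of 29 tested, 15 rose, 3 fell and 11 did not pass, against 33.8% higher and 9.72% lower over all entries. E2F1 and E2F2, activating E2F genes, rose by 0.86 ± 0.10 and 1.28 ± 0.14, and E2F8 by 0.98, while the pocket protein gene RB1 did not pass (0.11). Cyclin E2 (CCNE2) read 8.56 and 8.51 in siLATS1/2 and 9.48 and 9.65 in siLATS1/2/p53 and rose by 1.03 ± 0.11. Cyclin D2 (CCND2) went the other way, at 11.66 and 11.57 in siLATS1/2 and 11.02 and 10.77 in siLATS1/2/p53, and fell by 0.72 ± 0.08. SKP2, of the ligase that degrades p27, fell by 0.64. All 4 other CDK inhibitor genes tested passed as higher, and CDKN2D not after rescaling (adjusted p = 0.18). CDKN2C read 7.20 and 7.07 in siLATS1/2 and 8.67 and 8.32 in siLATS1/2/p53, a rise of 1.36 ± 0.13, and CDKN1B, which encodes p27, rose by 0.51 but not without the block (adjusted p = 0.11). CDKN1C lay at the floor in both siLATS1/2 libraries and read 6.97 and 6.36 in siLATS1/2/p53, so no fold is given. CDKN2A and CDKN2B lay at the floor in all 8 libraries and were not tested.

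**Figure D3:**
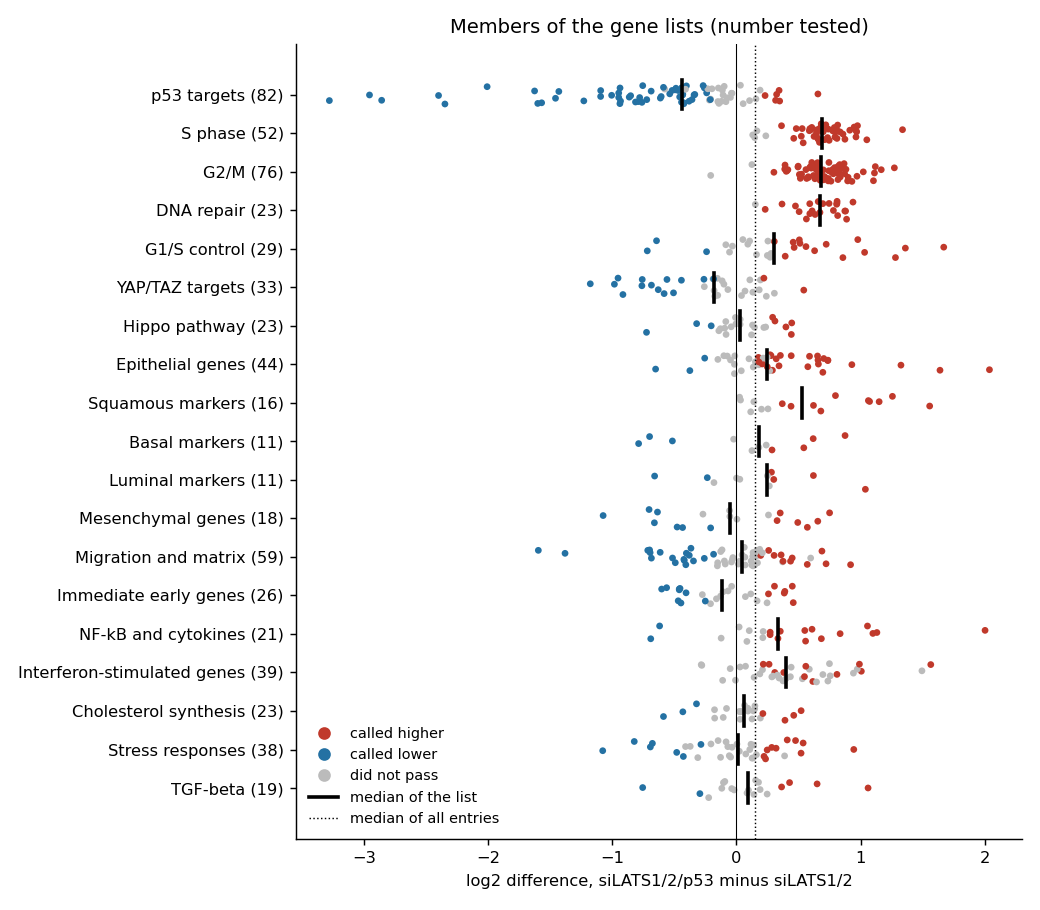
Each point is 1 tested member of a gene list, with its log2 difference (siLATS1/2/p53 minus siLATS1/2) on the horizontal axis and the lists in rows, the number tested in brackets. Red points were called higher, blue points lower and grey points did not pass, thick bars are list medians and the dotted line is the median of all entries at 0.15. The S phase, G2/M and DNA repair points sit as blocks near 0.7, and p53 targets spread to the left.

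Targets of YAP and TAZ included 14 of 33 that fell and 2 that rose, against 9.72% and 33.8% of all entries, with a median of -0.18. Without the block 7 fell and 0 rose, and after rescaling 21 fell and 0 rose. Members listed as secreted and matricellular made up 8 of the 14. TGFB2 and IGFBP3, although secreted, were listed with the intracellular and membrane members. CTGF, a matricellular growth factor gene and common readout of YAP, read 9.59 and 9.57 in siLATS1/2 and 8.33 and 8.47 in siLATS1/2/p53, next to 8.46 and 8.45 in siControl and 7.20 and 6.98 in sip53. Both siLATS1/2/p53 libraries were below both siLATS1/2 libraries, a fall of 1.18 ± 0.12 (adjusted p = 9.8e-06). CYR61, its relative, behaved alike, with 11.52 and 11.33 in siLATS1/2 and 10.56 and 10.39 in siLATS1/2/p53 and 10.51 and 10.39 in siControl and 9.34 and 9.08 in sip53, and fell by 0.95 ± 0.08. CRIM1 fell by 0.91 ± 0.07, THBS1 by 0.58 and the coagulation initiator F3 by 0.56. The receptor kinase gene AXL fell by 0.63 ± 0.08 but not without the block (adjusted p = 0.081), and TGFB2 fell by 0.76 ± 0.10. ANKRD1 was above the floor only in siLATS1/2 (6.24 and 5.28) and is given no fold. The 2 that rose were IGFBP3 (0.54) and WWC1 (0.22), and neither passed after rescaling or without the block.

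Of 23 Hippo pathway genes, 5 rose, 3 fell and 15 did not pass, against 33.8% and 9.72% of all entries. After rescaling 2 rose and 6 fell, and without the block 1 rose and 1 fell. YAP1 itself read 12.07 and 12.23 in siLATS1/2 and 11.78 and 11.88 in siLATS1/2/p53 and fell by 0.32 ± 0.07 (adjusted p = 0.0023), a call lost without the block (adjusted p = 0.096). WWTR1, which encodes TAZ, did not pass (0.24 ± 0.09). The adaptor gene FRMD6 fell by 0.72 ± 0.08, and WWC2, a LATS-binding scaffold gene, rose by 0.40 ± 0.08. The TEAD factor gene TEAD4 rose by 0.44 ± 0.11 but not without the block (adjusted p = 0.081).

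As over all entries, epithelial genes rose more often than they fell. Of 44 tested, 25 rose and 3 fell (33.8% and 9.72% over all entries), with a median of 0.25. After rescaling 16 rose and 7 fell, and without the block 14 rose and 2 fell. The group of transcription factors and proteases had 10 of 13 up and 0 down (9 and 0 after rescaling). ELF3, an epithelial ETS factor gene, read 9.71 and 9.34 in siLATS1/2 and 11.73 and 11.39 in siLATS1/2/p53. It lay higher in both batches (2.04 ± 0.10, adjusted p = 3.8e-08). OVOL2, which restrains mesenchymal transition, rose by 0.93, EHF by 0.73, KLF5 by 0.66 ± 0.07, the grainyhead genes GRHL3 and GRHL1 by 0.70 and 0.66, and the protease gene ST14 by 0.57. EHF did not pass without the block (adjusted p = 0.2). Of 11 desmosome genes 6 rose and 1 fell (2 and 2 after rescaling, 2 and 0 without the block). PPL, which encodes periplakin, read 10.86 and 10.39 in siLATS1/2 and 12.22 and 11.68 in siLATS1/2/p53 and rose by 1.32 ± 0.08 (adjusted p = 1.5e-07), and the plakoglobin gene JUP rose by 0.70 ± 0.07. Of 11 cadherin and polarity genes 4 rose, near the share of all entries, and after rescaling 1 rose and 2 fell. E-cadherin (CDH1) read 13.53 and 13.53 in siLATS1/2 and 14.27 and 14.09 in siLATS1/2/p53 and rose by 0.65 ± 0.07 (adjusted p = 1.6e-05). Of 9 tight junction genes 5 rose and 2 fell (4 and 3 after rescaling). CLDN7 rose by 0.74 ± 0.08 and MARVELD2 fell by 0.65, while TJP3 lay at the floor in both siLATS1/2 libraries and read 6.84 and 6.44 in siLATS1/2/p53.

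Squamous differentiation genes rose in 10 of 16 cases and fell in 0, with a median of 0.53 (8 and 0 after rescaling, 6 and 0 without the block), against 33.8% and 9.72% of all entries. TGM1, the transglutaminase that crosslinks the cornified envelope, read 8.87 and 8.98 in siLATS1/2 and 10.19 and 9.95 in siLATS1/2/p53 and rose by 1.15 ± 0.11 (adjusted p = 5.6e-06). The kallikrein genes KLK10 and KLK7 rose by 0.80 ± 0.08 and 1.07 ± 0.11. SPRR2A and SPRR2D also passed, but belong to a family with near-identical copies and are uncertain. Involucrin (IVL) did not pass (0.20).

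Of 18 mesenchymal genes tested, 6 rose and 7 fell (2 and 8 after rescaling, 1 and 3 without the block), against 33.8% and 9.72% of all entries. SNAI2, the gene of SLUG, read 9.41 and 9.82 in siLATS1/2 and 9.01 and 9.27 in siLATS1/2/p53 and fell by 0.48 ± 0.08 (adjusted p = 6.0e-04), but not without the block (adjusted p = 0.17). TWIST1 rose by 0.57 ± 0.13. Among cytoskeletal genes the smooth muscle type member TAGLN read 10.94 and 11.09 in siLATS1/2 and 9.93 and 9.95 in siLATS1/2/p53 and fell by 1.07 ± 0.10, TPM1 fell by 0.64 ± 0.08 and MYL9 by 0.70. Vimentin (VIM) differed by 0.00 ± 0.08.

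Of 59 migration and matrix genes 18 fell and 11 rose (25 and 7 after rescaling, 5 and 5 without the block), against 9.72% and 33.8% of all entries. Of 11 integrin genes 6 fell and 0 rose. ITGA3 fell by 0.42 ± 0.07, while ITGB4 fell by 0.61 ± 0.07 but not without the block (adjusted p = 0.077). Of 15 matrix genes 7 fell and 3 rose. Fibronectin (FN1) read 15.50 and 15.89 in siLATS1/2 and 13.89 and 14.32 in siLATS1/2/p53 and fell by 1.60 ± 0.09 (adjusted p = 8.4e-08), and the laminin genes LAMA3 and LAMB3 fell by 0.70 and 0.49, the latter not without the block (adjusted p = 0.11). COL4A2, a basement membrane collagen gene, rose by 0.69. In proteolysis the inhibitor gene TIMP3 fell by 0.71 ± 0.07 and the urokinase receptor gene PLAUR rose by 0.72 ± 0.07. The motility genes RHOA and CDC42 rose by 0.45 and 0.44, and the ephrin receptor gene EPHA2 fell by 0.42 ± 0.07 but not without the block (adjusted p = 0.0501).

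Basal markers, which MCF10A cells are known to carry, were above the floor in all 8 libraries and split in direction, with 4 of 11 up and 3 down (2 and 4 after rescaling), a share of rises near the 33.8% over all entries, of which 9.72% fell. KRT14 and KRT16 rose by 0.54 and 0.87, while COL17A1, S100A2 and TP63 fell by 0.70 ± 0.07, 0.79 ± 0.08 and 0.52. The rises of KRT14 and KRT16 are uncertain, as both were treated as members of families with near-identical copies. None of the 11 passed without the block. Among luminal markers 4 of 11 rose and 2 fell (2 and 3 after rescaling), again near 33.8% and 9.72%, and none passed without the block either. MUC1, a cell surface mucin gene, read 11.47 and 10.96 in siLATS1/2 and 12.41 and 12.10 in siLATS1/2/p53 and rose by 1.04 ± 0.09, ERBB3 rose by 0.62 ± 0.10, and KRT8 read 11.84 and 11.26 in siLATS1/2 and 12.11 and 11.54 in siLATS1/2/p53 with a rise of 0.28 ± 0.10 that ended after rescaling (adjusted p = 0.34). The luminal genes KRT19 and PGR lay at the floor in all 8 libraries. Of 22 markers of blood, endothelial and fibroblast cells, 16 lay at the floor in all 8, PTPRC, PECAM1, CDH5, COL1A2 and PDGFRA among them. CD14 rose by 0.90 ± 0.13 but not without the block (adjusted p = 0.051), and KDR lay above the floor only in siLATS1/2/p53 (6.13 and 5.47). The fibroblast gene DCN followed the batch (7.87 and 5 in siLATS1/2 and 8.39 and 5 in siLATS1/2/p53) and did not pass. The summed level of the 8 blood markers (log2 of summed linear values) was 9.37 to 9.54 in siLATS1/2 and 9.76 to 9.84 in siLATS1/2/p53. That of the 8 fibroblast markers was 7.46 to 8.81 and 7.51 to 9.07, and of the 6 endothelial markers none was above the floor in siLATS1/2 and KDR alone in siLATS1/2/p53. The part of these cell types in the results above was not tested.

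Immediate early and ERK feedback genes fell in 9 of 26 cases and rose in 6 (12 and 2 after rescaling, 5 and 1 without the block), against 9.72% and 33.8% of all entries. EGR1 read 8.98 and 9.07 in siLATS1/2 and 8.40 and 8.51 in siLATS1/2/p53, next to 10.81 and 10.74 in siControl and 9.52 and 9.67 in sip53, and fell by 0.56 ± 0.10 (adjusted p = 4.3e-04). IER3 fell by 0.46 ± 0.07, PHLDA1 by 0.60 ± 0.08 and the phosphatase gene DUSP6 by 0.47. Of 7 genes of ERBB ligands and receptors 3 fell, namely HBEGF (-0.85 ± 0.09), TGFA (-0.61) and NRG1 (-0.98 ± 0.10, adjusted p = 0.086 without the block), against 9.72% of all entries. Another 2 rose, and 0 did after rescaling or without the block, against 33.8% of all entries.

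NF-kB targets and cytokines rose in 13 of 21 cases and fell in 2, with a median of 0.33 (8 and 2 after rescaling, 4 and 1 without the block), against 33.8% and 9.72% of all entries. IL6, an inflammatory cytokine gene, read 5.38 and 5 in siLATS1/2 and 7.18 and 7.20 in siLATS1/2/p53 and lay at the floor in all siControl and sip53 libraries, so no fold is given. Both siLATS1/2/p53 libraries thus stood well above all 6 others. BIRC3, an inhibitor of apoptosis induced by NF-kB, read 12.08 and 11.99 in siLATS1/2 and 13.23 and 13.04 in siLATS1/2/p53 and rose by 1.10 ± 0.07 (adjusted p = 1.5e-07). NFKBIA, the inhibitor of NF-kB, rose by 0.55, the adhesion gene ICAM1 by 0.56, the chemokine genes CXCL3 and CXCL1 by 1.05 and 0.68, and TNFAIP2 by 0.83 ± 0.11 (adjusted p = 0.23 without the block). IL1A and IL1B fell by 0.69 ± 0.07 and 0.62. CXCL3, CXCL1, ICAM1 and IL1B did not pass without the block. CXCL3 and CXCL1 were treated as members of a family with near-identical copies and are uncertain.

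Interferon-stimulated genes rested on single libraries. Of 39 tested 11 rose and 0 fell (4 and 0 after rescaling, 2 and 0 without the block), against 33.8% and 9.72% of all entries. The count of rises was 32 without siLATS1/2 replicate 1 and 3 without siLATS1/2 replicate 2, with 5 falls in the latter. IFIT2, an antiviral effector gene, read 8.08 and 5.92 in siLATS1/2 and 8.38 and 7.63 in siLATS1/2/p53, so that the siLATS1/2 batches differed by more than the groups in batch 1. PSMB8, an immunoproteasome subunit gene, was apart in both batches (9.48 and 9.10 in siLATS1/2 and 10.48 and 10.08 in siLATS1/2/p53) and rose by 0.99 ± 0.09. The transcription factor gene IRF1 rose by 0.56 ± 0.11.

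Metabolic and stress lists split in direction, and their counts are read against 33.8% higher and 9.72% lower over all entries. Of 23 cholesterol synthesis genes 4 rose and 3 fell (2 and 7 after rescaling, 1 and 1 without the block), with the feedback gene INSIG1 down by 0.59 ± 0.06. Of 38 stress genes 10 rose and 7 fell (3 and 10 after rescaling, 0 and 3 without the block). The hypoxia genes CA12, a carbonic anhydrase, and ANGPTL4 fell by 0.82 ± 0.06 and 1.08 ± 0.12, and the serine synthesis gene PHGDH rose by 0.94 ± 0.15 (adjusted p = 0.088 without the block). Of 19 TGF-beta genes 4 rose and 2 fell (3 and 6 after rescaling, 1 and 1 without the block). The co-receptor gene TGFBR3 rose by 0.65 ± 0.08, and the secreted TGFBI fell by 0.75 ± 0.08 but not without the block (adjusted p = 0.053).

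Other large changes lay outside these lists. Among called genes above the median level, the carbonic anhydrase gene CA2 had the next largest rise after ELF3, at 9.77 and 10.07 in siLATS1/2 and 11.56 and 11.55 in siLATS1/2/p53 (1.64 ± 0.10, adjusted p = 2.0e-07). The secreted peptide gene NMU read 9.38 and 8.95 in siLATS1/2 and 10.62 and 10.50 in siLATS1/2/p53 and rose by 1.40 ± 0.11, and AQP3, a water and glycerol channel gene, rose by 1.38 ± 0.16. SECTM1 rose by 1.43 ± 0.10 with wide batches (9.93 and 8.75 in siLATS1/2 and 11.25 and 10.28 in siLATS1/2/p53) and did not pass without the block (adjusted p = 0.11). The junctophilin gene JPH2 rose by 1.18 ± 0.12 and the iron reductase gene CYBRD1 by 1.11 ± 0.08. Among the falls, PLCH2, a phospholipase C gene, read 10.54 and 10.59 in siLATS1/2 and 8.01 and 8.99 in siLATS1/2/p53 and fell by 2.06 ± 0.16, with the lowest value in the shallowest library. FADS3 of the fatty acid desaturase family fell by 1.74 ± 0.13 (12.33 and 12.45 in siLATS1/2 and 10.67 and 10.63 in siLATS1/2/p53), the elongase gene ELOVL7 by 1.58 ± 0.10 and the acyltransferase gene LPGAT1 by 1.57 ± 0.07 (12.70 and 12.59 in siLATS1/2 and 11.18 and 10.97 in siLATS1/2/p53). The sialomucin gene CD164 fell by 1.59 ± 0.07 (13.54 and 13.13 in siLATS1/2 and 11.92 and 11.57 in siLATS1/2/p53).

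The effect of p53 siRNA was then set beside its effect in cells without LATS1/2 siRNA. In sip53 minus siControl, which shares no library with the comparison above, 3199 entries passed (26.0%), 1965 higher (16.0%) and 1234 lower (10.0%), and 475 passed without the block. The 2 differences correlated across genes with r = 0.71, as a description, since both draw on the same batches and genes are not replicates. Of the rises after LATS1/2 siRNA 37.9% were also called higher in sip53, and of the sip53 rises 80.3% were called higher after LATS1/2 siRNA (1578 entries). For falls the shares were 59.1% and 57.4% (708 entries), and 34 entries were called in opposite directions. CDKN1A differed by -2.62 ± 0.09 in sip53 minus siControl and by -2.95 ± 0.09 after LATS1/2 siRNA. Of 82 p53 targets 54 fell and 0 rose in sip53, with a median of -0.43, next to -0.44 here. Of 52 S phase genes 41 rose in sip53 (median 0.45, against 0.69 here), and 63 of the 76 G2/M genes did, while 2 fell (median 0.40, against 0.68). Without the block 14 S phase and 20 G2/M genes rose in sip53, and 28 p53 targets fell. A larger difference need not mean a higher level. Mean NCAPG levels were 11.37 in siControl, 10.77 in siLATS1/2, 11.79 in sip53 and 11.74 in siLATS1/2/p53. For RRM2 they were 11.33, 11.38, 12.04 and 12.43 in the same order. These are examples that differ. Among other named genes, MCM7, POLA2, CENPH, KIF20A and TPX2 resembled NCAPG, with the lowest mean in siLATS1/2 and the highest in sip53. ASF1B and MYBL2 were also lowest in siLATS1/2 but highest in siLATS1/2/p53. The levels of the lists were not compared. The median over all entries was 0.06 in sip53 and 0.15 here.

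The difference between the 2 effects was itself tested. It passed for 250 entries (2.03%), 216 higher (1.75%) and 34 lower (0.276%) after LATS1/2 siRNA, and the median difference between the effects over all entries was 0.10. After rescaling 50 were higher (0.406%) and 31 lower (0.252%). Without the block 0 passed, while 807 entries had an unadjusted p under 0.05 (2451 with the block). The count was 27 without siLATS1/2/p53 replicate 1 and 557 without siLATS1/2/p53 replicate 2. Of the 216, 102 rose after LATS1/2 siRNA and did not pass in sip53, 37 rose in both, 40 fell in sip53 and did not pass after LATS1/2 siRNA, and 28 fell in sip53 and rose after LATS1/2 siRNA. Among the lists, the difference passed for 4 of 52 S phase genes, 4 of 76 G2/M genes, 4 of 44 epithelial genes, 4 of 16 squamous genes and 7 of 21 NF-kB genes, all higher (0, 2, 4, 3 and 3 after rescaling). For p53 targets it passed for 1 higher (SERPINB5) and 1 lower (DRAM1, -0.63) of 82, and for 0 of 33 YAP/TAZ targets. After rescaling it passed for 1 higher and 2 lower p53 targets, and for 0 higher and 1 lower YAP/TAZ target (CRIM1, -0.50).

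**Figure D4:**
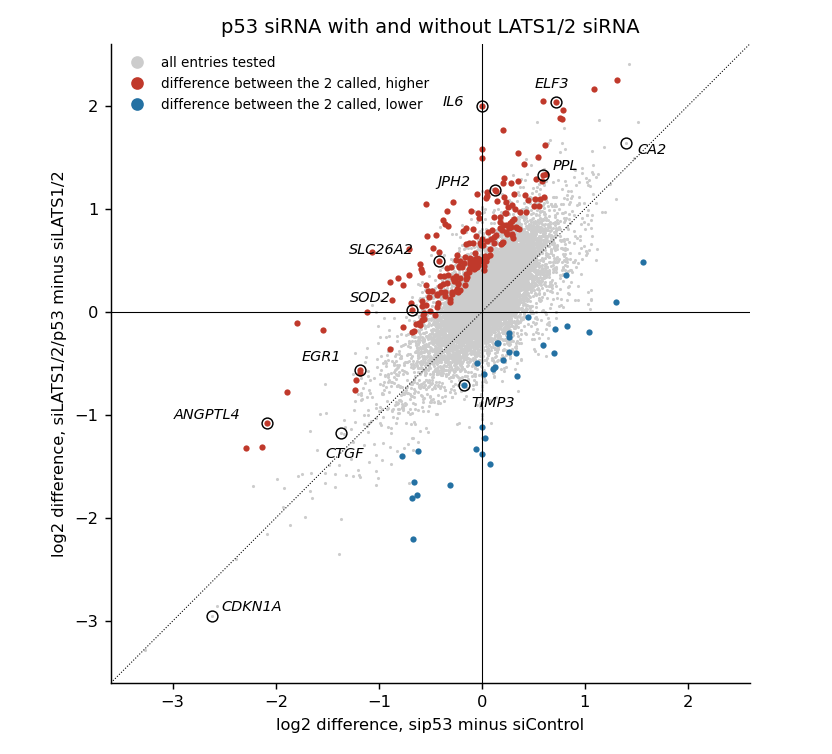
Each point is 1 entry, with the log2 difference sip53 minus siControl on the horizontal axis and siLATS1/2/p53 minus siLATS1/2 on the vertical axis, and the dotted line marks equal effects. Red and blue points passed the test of the difference between the effects, 216 higher and 34 lower, and open circles mark the genes named. CDKN1A and CTGF lie near the line, and ELF3, IL6, PPL and JPH2 lie well above it.

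ELF3 had the largest difference between the effects among the named genes above the median level. It read 9.36 and 8.81 in siControl and 10.19 and 9.41 in sip53, a rise of 0.72 ± 0.10, against 9.71 and 9.34 in siLATS1/2 and 11.73 and 11.39 in siLATS1/2/p53, a rise of 2.04 ± 0.10. The effects differed by 1.32 ± 0.15 (adjusted p = 0.0026, limma). PPL rose by 0.60 and by 1.32, and JPH2 differed by 0.13 ± 0.12 in sip53 and rose by 1.18 ± 0.12 after LATS1/2 siRNA. ATP2B4, a plasma membrane calcium pump gene, read 12.58 and 12.62 in siControl and 12.51 and 12.52 in sip53 and 11.87 and 11.97 in siLATS1/2 and 12.61 and 12.55 in siLATS1/2/p53. Its level thus lay lower in siLATS1/2 than in the other 3 groups. KLK10 rose by 0.80 after LATS1/2 siRNA and did not pass in sip53 (0.10 ± 0.08).

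Other genes differed in direction or in size between the comparisons. SLC26A2, a sulfate transporter gene, read 12.94 and 11.81 in siControl and 12.46 and 11.46 in sip53, a fall of 0.41 ± 0.07, and 12.28 and 11.11 in siLATS1/2 and 12.78 and 11.60 in siLATS1/2/p53, a rise of 0.49 ± 0.07. Its batches lay more than 1 log2 unit apart, and the rise did not pass without the block (adjusted p = 0.6). SERPINB1, an inhibitor of neutrophil proteases, fell by 0.58 in sip53 and rose by 0.39 after LATS1/2 siRNA, a rise lost after rescaling (adjusted p = 0.093) and without the block (adjusted p = 0.065). The tight junction gene CLDN1 fell by 0.48 in sip53 and rose by 0.20 after LATS1/2 siRNA, near the median of 0.15, and this rise passed neither after rescaling (adjusted p = 0.68) nor without the block (adjusted p = 0.16). The mitochondrial dismutase gene SOD2 fell by 0.68 ± 0.07 in sip53 and differed by 0.02 ± 0.07 after LATS1/2 siRNA (adjusted p = 0.83). ANGPTL4 fell by 2.08 in sip53 and fell by 1.08 here, and its siLATS1/2 libraries (12.14 and 11.93) lay below siControl (12.97 and 12.94). TIMP3 fell by 0.71 after LATS1/2 siRNA and did not pass in sip53 (-0.18 ± 0.07).

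**Figure D5:**
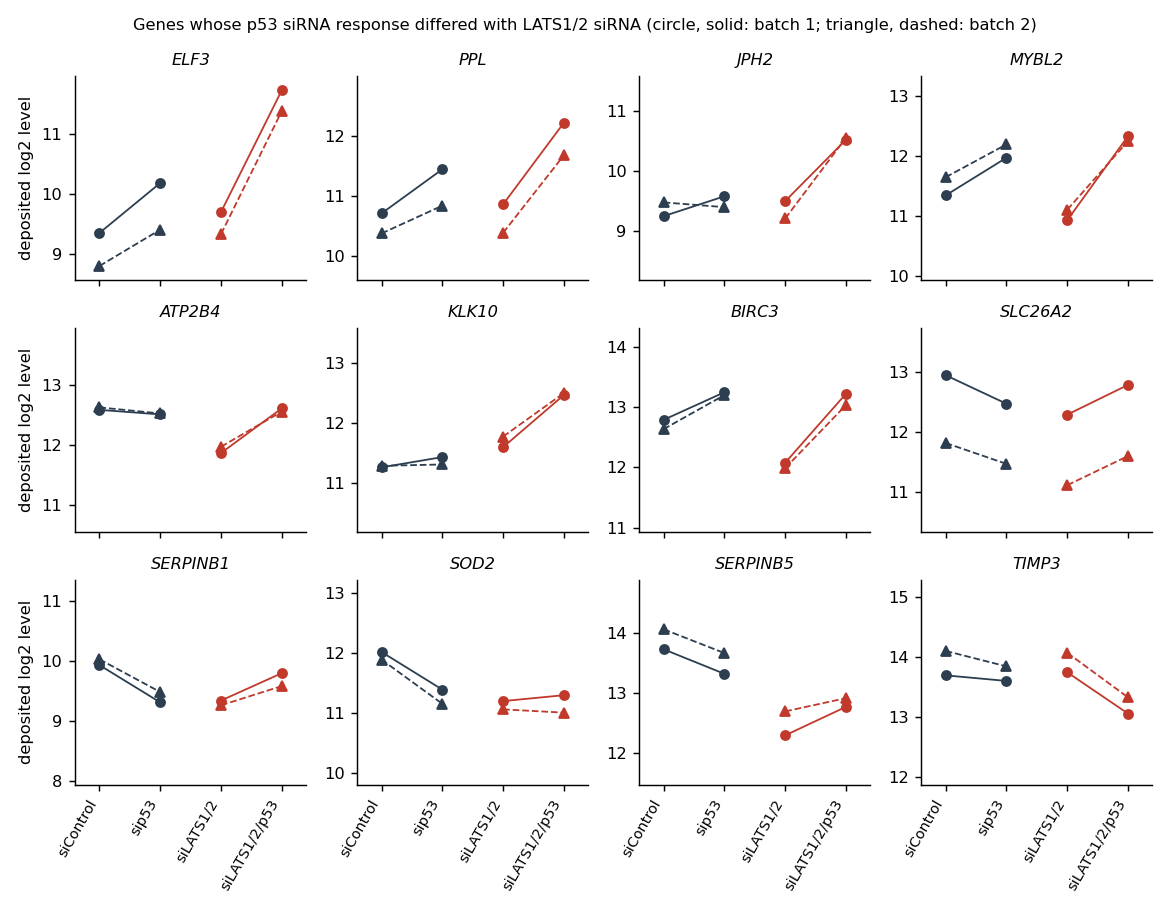
Deposited log2 levels of 12 genes in all 8 libraries, with the 4 groups along the horizontal axis and lines joining libraries of a batch before and after p53 siRNA (dark without, red with LATS1/2 siRNA). Every panel spans the same number of log2 units. ELF3, PPL and JPH2 have steeper red lines than dark lines, SLC26A2 and SERPINB1 have dark lines that slope down and red lines that slope up, and TIMP3 has the steeper fall in red.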

How the data were processed

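The 8 libraries hold polyadenylated RNA of MCF10A cells. The kit was TruSeq RNA, version 2, which does not keep strand, and 8 samples shared a lane, per the labels' protocols. Reads of overlapping and antisense genes can therefore not be told apart. TopHat and the hg19 build were used, per the submitters' processing notes. The read counter, annotation and scaling were not given in the sources used here, and the depth behind a value is an estimate. The authors deposited log2 levels with a floor of 5 (32 on the linear scale). The base was taken as 2, as it is not stated. The 8 per-library files held the values of the series table.

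All 8 libraries were fitted in limma 3.58.1 (R 4.3.3) on the deposited log2 values, with a mean-variance trend and the replicate number as a block (3 residual degrees of freedom, 10.86 prior), and no pseudocount. Benjamini-Hochberg adjustment covered all 12315 entries, with a threshold of 0.05. The labels call the replicate number a batch of cells. Same-numbered libraries deviated together from their group means, with correlations from 0.565 to 0.726 in 6 pairs of groups, and the numbers were taken as pairs. Depth was estimated from the steps between linear values of 32 to 80, and whole reads could not be recovered, so no count test was run. The floor stood for 14.6 to 50.0 reads.

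The comparisons were siLATS1/2/p53 minus siLATS1/2, sip53 minus siControl, and the difference of both. Lists (21, with 725 members, 724 of them with an entry) were described by counts and medians. Genes named were the siRNA targets, the 12 largest rises and falls called with a mean above the median, groups apart and a unique symbol, up to 2 members per list role with the smallest p, 10 readouts, and the 8 smallest p of the difference, and not all of the 129 are printed. Further list members are named as examples chosen after their values were seen. The members and lists were chosen with earlier results of these data known. The level of the p53 transcript and the results of some other genes are not reported here. Entries repeating a symbol (147) were tested but not named. The promoter sequences are RefSeq's. On simulated data for siLATS1/2/p53 minus siLATS1/2 (12313 genes), 62.7% of genes changed by 0.5, 92.5% of those changed by 1 and 95.5% of those changed by 2 log2 units were recovered, and 4.02% of calls were false. Only 67, 67 and 66 genes were changed by these sizes, up and down alike, with no scaling shift between libraries. The share of false calls therefore does not cover errors from the scaling. The alternatives were no block, only the 4 libraries compared, rescaling by medians of ratios, other filters, 32 added on the linear scale, no trend, each library left out and, chosen after seeing the data, both shallowest libraries left out.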

Additional observations from a re-analysis of the deposited data

Results flagged for a closer look

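The effect of p53 siRNA differed between cells with and without LATS1/2 siRNA for the 26 named genes listed here, by the test of that difference (limma, Benjamini-Hochberg adjusted p under 0.05, with the batch block). Each value below is the effect after LATS1/2 siRNA minus the effect in its absence, on the log2 scale. Among epithelial and squamous genes it was 1.32 for ELF3, 0.73 for PPL, 0.68 for CLDN1, 0.84 for TGM1, 0.70 for KLK10 and 0.74 for MUC1. SPRR2D, of a family with near-identical copies, had 0.98. Among cell division genes it was 0.45 for MCM2, 0.51 for HMMR, 0.55 for NCAPG, 0.60 for GINS1, 0.69 for MYBL2, 0.71 for ASF1B and 0.72 for TK1. Among NF-kB and cytokine genes it was 0.59 for BIRC3 and 0.70 for SOD2. IL6 had 2.00, a value set by the floor, at which 5 of its 8 libraries lay. The serpin genes had 0.75 (SERPINB5) and 0.97 (SERPINB1). The remaining values were 0.62 for EGR1, 0.75 for ATP2B4, 0.80 for S100P, 0.90 for SLC26A2, 1.00 for ANGPTL4 and 1.06 for JPH2. Of the 26 genes, TIMP3 alone had a negative value, -0.54. The median over all entries was 0.10, and without the block no entry passed. After rescaling the difference no longer passed for 9 of the 26 genes, namely MCM2, HMMR, GINS1, TK1, ASF1B, TGM1, EGR1, S100P and ANGPTL4 (adjusted p from 0.051 to 0.10).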

How the results depend on the processing

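Without the replicate block the calls fell from 5361 to 1791 for siLATS1/2/p53 minus siLATS1/2, from 3199 to 475 for sip53 minus siControl and from 250 to 0 for the difference of both, and with rescaling as well to 1200, 442 and 0. Only the 4 libraries compared gave 3406 calls for the first. Each library left out in turn gave 3256 to 5741, 1336 to 3639 and 27 to 557. For the difference of both, rescaling gave 81, entries above the floor in all 8 libraries 525, no filter 23, no trend 2, and both shallowest libraries left out 123. The cause was not tested. The other settings stayed within 1.5 times. Of the 123 named genes called, 112 also passed with each single library removed, and 0 were reversed in the settings run. LATS1, LATS2, SOD2, CD68 and COL1A1, which did not pass, changed sign. With single libraries left out LATS1 ran from -0.17 to 0.0058, LATS2 from -0.039 to 0.25, SOD2 from -0.040 to 0.083, CD68 from -0.13 to 0.12 and COL1A1 from -0.12 to 0.076. After rescaling, with and without the replicate block, LATS2 was -0.049 and SOD2 -0.13. Without both shallowest libraries SOD2 was -0.030, CD68 0.16 and COL1A1 0.083. Groups hold 2 libraries, so p-values rest on the spread pooled over all groups, and the lone library left in a group is assumed to vary like the others. The floor stood for more reads in deeper libraries, and it limits genes with low levels.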
